A study of Mus musculus with 6 samples.

Results

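The endoplasmic reticulum chaperones described here are 10 genes, Hsp90b1, Hspa5, Creld2, Calr, Canx, Pdia4, Pdia6, Sdf2l1, Manf and Dnajb9. All probes whose platform annotation carried one of these symbols were taken, which gave 14 of the 45281 probes on the array and 10 of the 19057 named genes. RNA of NOTCH1-induced mouse T cell acute lymphoblastic leukemia (T-ALL) was hybridised to Illumina bead arrays, with 3 arrays labelled Klf4-deficient (Knock Out) and 3 labelled control (Wild Type). Both groups came from bone marrow of male mice at 4 weeks after transplantation, from cells sorted for GFP, CD4 and CD8, and GFP and the NOTCH1 leukemia were thus common to both. The Klf4 allele, any Cre driver, the mouse strain and the ages are not stated in the labels, and nothing in the labels says that the samples of a group came from separate animals, so the p-values measure only the spread between these samples, which may be technical.

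Proteins that enter the secretory pathway fold in the endoplasmic reticulum (ER) with the help of the Hsp70 family member BiP (Hspa5), the Hsp90 family member GRP94 (Hsp90b1), the lectin chaperones calnexin (Canx) and calreticulin (Calr), and disulfide isomerases such as Pdia4 and Pdia6. When unfolded proteins accumulate, the sensors ATF6, IRE1 and PERK start the unfolded protein response (UPR), and ATF6 and XBP1 raise the transcription of these genes together. In T cells the same chaperones fold the T cell receptor chains, integrins and other surface proteins. Bulk RNA from sorted cells cannot tell fewer cells of a type from less RNA per cell.

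A known binding site of this response is the ER stress element, which reads CCAAT, any 9 bases and CCACG, and in which the nuclear factor Y complex binds the first fixed letters and ATF6 the last. It was searched on both strands of the RefSeq promoter windows of assembly GRCm38.p6, 300 bases running from 250 before to 50 after the start of a gene. The element stood in 39 of all 32851 windows (0.119%). Of the 10 chaperone genes 9 had a window in the table, all but Manf, and 6 of these 9 windows held the element, those of Hsp90b1, Hspa5, Creld2, Calr, Canx and Pdia6. The window of Pdia4 had 9 of the 10 fixed letters, a near match that 494 of all windows (1.5%) reached or passed. The windows of Sdf2l1 and Dnajb9 reached at most 8 of the 10. The element is a known site of the response that raises these genes, so its presence in their windows is no independent finding. The stretches that hold the elements are shown on the strand of the gene, with the matched fixed letters in capitals. CCAAT alone stood in 37.4% and CCACG alone in 32.8% of all windows, and both are parts of the element.
Hsp90b1, chr10:86705521-86705668, minus strand: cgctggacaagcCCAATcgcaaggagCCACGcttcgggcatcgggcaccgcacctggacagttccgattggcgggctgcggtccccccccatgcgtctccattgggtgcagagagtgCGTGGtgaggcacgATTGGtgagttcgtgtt
Hspa5, chr2:34772013-34772055, plus strand: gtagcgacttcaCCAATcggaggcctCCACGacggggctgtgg
Creld2, chr15:88819508-88819550, plus strand: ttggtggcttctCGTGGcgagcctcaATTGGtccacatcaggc
Calr, chr8:84847063-84847105, minus strand: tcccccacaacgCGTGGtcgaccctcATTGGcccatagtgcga
Canx, chr11:50325788-50325830, minus strand: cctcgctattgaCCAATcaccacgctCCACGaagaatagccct
Pdia6, chr12:17266479-17266521, plus strand: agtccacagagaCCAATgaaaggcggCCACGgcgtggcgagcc
Pdia4, near match, chr6:47813590-47813632, minus strand: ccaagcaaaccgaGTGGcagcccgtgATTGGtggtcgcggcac

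Hsp90b1 had 2 elements, which began 212 and 107 bases before its start and lay on opposite strands. The single element of Hspa5 was the nearest to a start, beginning 65 bases before it, and the others began between 98 and 162 bases before. Creld2 and Alg12, a mannosyltransferase gene of N-glycan assembly, are transcribed away from each other from starts 328 bases apart, and the element of Creld2 lay in the window of both. The element of Calr likewise lay in the window of 1700122E12Rik, which starts 216 bases away on the other strand. A match is a description of these letters, and no binding was measured here.

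**Figure D1:**
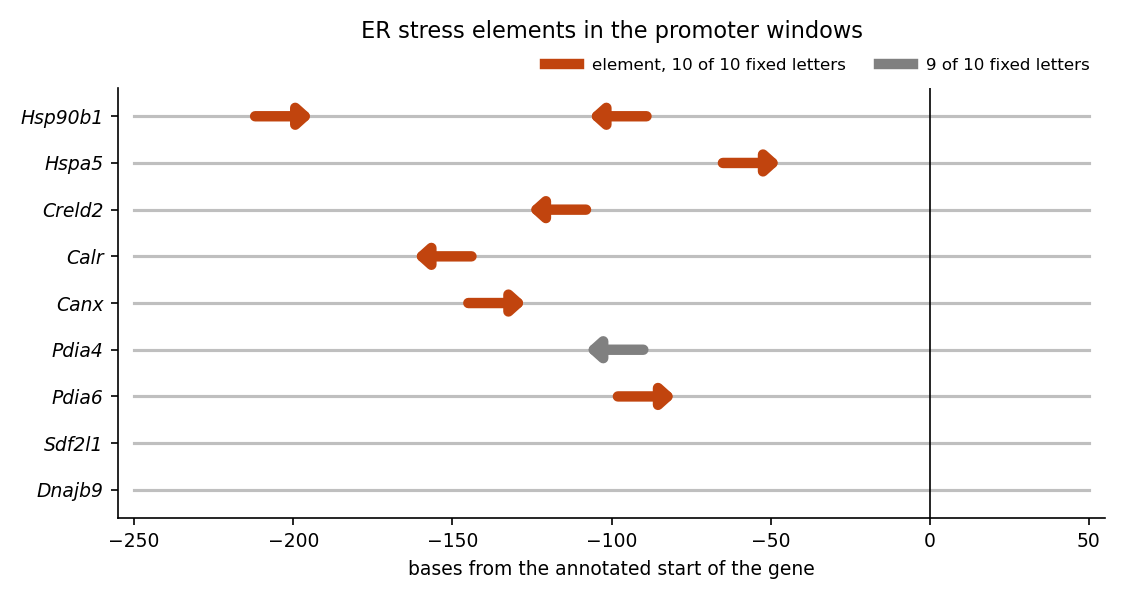
Position of the ER stress element in the promoter windows of 9 chaperone genes, on an axis of bases from the annotated start of the gene. Arrows run from the CCAAT end to the CCACG end (orange, 10 of 10 fixed letters; grey, 9 of 10), and the 6 windows with an exact element carry it between 212 and 47 bases before the start.

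Signal here means the intensity of a probe as deposited, with no log taken. Many values lie below 0, so a background had been subtracted. Mean signal per array was between 359.5 and 431.8 in the arrays labelled Klf4-deficient and between 417.3 and 445.1 in the controls, with the lowest in array 3 labelled Klf4-deficient, which also correlated least with the others (0.983 to 0.987 across probes). A probe was taken as above background when its signal passed 3 SDs of the array's background, a limit between 21.8 and 23.7. The Klf4 probe with the most signal gave 80.6, 46 and 85.4 in the arrays labelled Klf4-deficient, against 44, 18.4 and 24.6 in the controls, which goes against the label. Where the Klf4 probes lie relative to the deleted part is not known here, so they may check nothing, and every direction given here rests on the labels. Of the sort markers, which were named because the labels give them, Cd8b1 gave 25892 to 26627 against 28518 to 29424 in the controls and Cd4 gave 1052 to 1415 against 1044 to 1477, while the brighter Cd8a probe was above background on 1 of 3 arrays labelled Klf4-deficient and 3 of 3 control arrays.

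Of the 10 chaperone genes, 7 were above background on all 6 arrays, and 3 of these, Hsp90b1, Creld2 and Dnajb9, were higher on every array labelled Klf4-deficient than on any control once the arrays had been quantile normalized. No gene of the 10 was lower on every array. Of all 19057 genes 5.45% were higher without overlap, and of the 7934 genes with a mean signal over 50, a set that holds the same 7 chaperone genes, 7.65% were. In limma 0 of the 10 passed at an adjusted p of 0.05, where 0.0105% of all genes passed (Commd10 and Tspyl5, both higher). The Tspyl5 probe was above background on no array, so its value gives no level for that gene. By the unadjusted p of limma, 3 of the 10 were under 0.05 and higher and 0 were under it and lower. The shares were 3.49% and 4.1% of all genes, and 4.93% and 6.96% of the brighter ones, of which 10.3% were lower without overlap. A difference above 0 was found in 6 of the 10, and in 45.1% of all genes, with 1902 more at 0, and 47.1% of the brighter ones. Counted as 14 probes, 4 were higher and 0 lower without overlap, against 4.29% and 5.26% of all probes. The same 4 had an unadjusted p under 0.05, against 2.64% of all probes that were higher at that level, and 0 passed the adjusted threshold, against 0.00442%. The median log2 difference, arrays labelled Klf4-deficient minus control, was 0.14 over the 10 genes, against 0 over all genes. Over the 7 with a mean signal over 50 it was 0.20, against -0.01 over all 7934 of that brightness. The middle values of the 10 were those of Manf (0.13) and Hspa5 (0.15), both also counted above 0. Neither probe was above background on all 6 arrays. The members were chosen with earlier results of these data known, so these counts are a description.

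**Figure D2:**
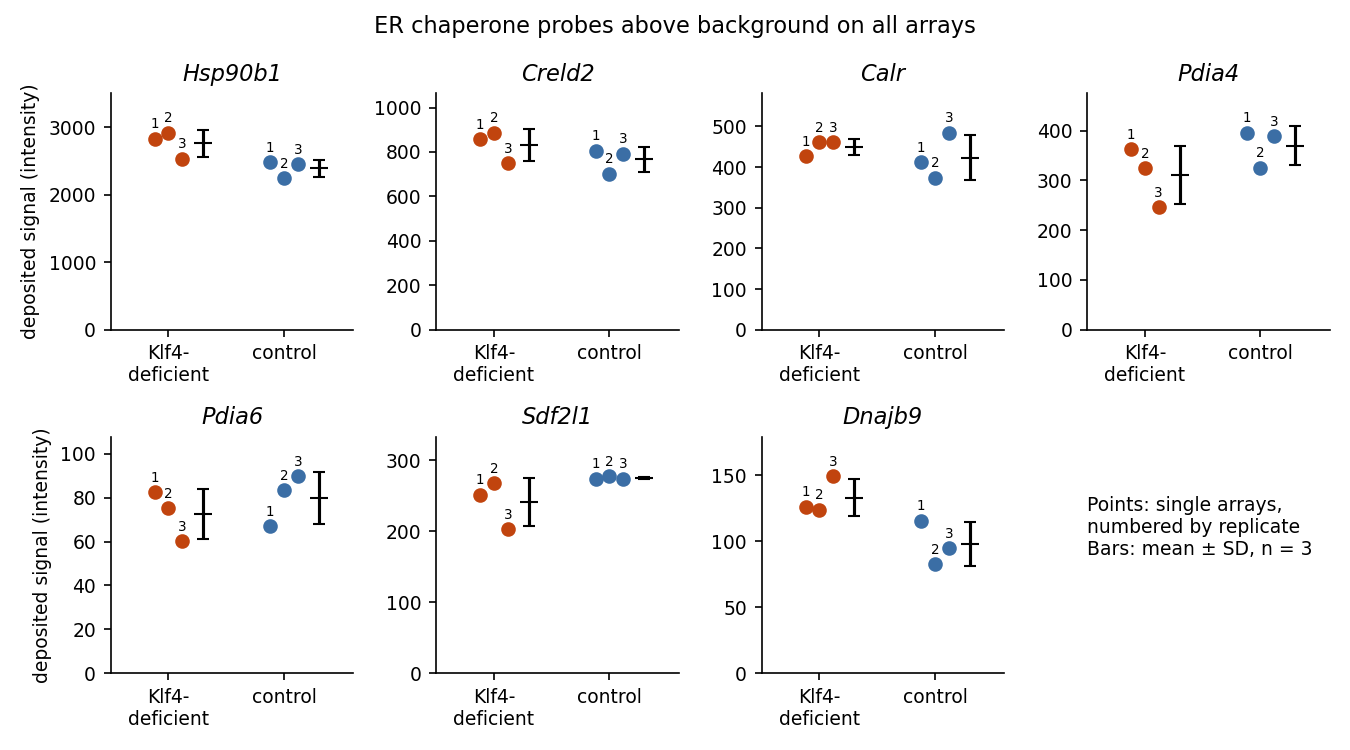
Deposited signal (intensity, linear axis from 0) of the 7 chaperone genes above background on all arrays, 1 point per array numbered by replicate, with the mean and SD of 3 arrays beside each group. Hsp90b1 and Dnajb9 were separate between the groups before any normalization, while Sdf2l1 lay lower on the 3 arrays labelled Klf4-deficient.

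Hsp90b1 encodes GRP94, the Hsp90 of the ER lumen, which folds integrins and Toll-like receptors. Its signal was 2830, 2917 and 2535 in the arrays labelled Klf4-deficient, against 2480, 2242 and 2453 in the controls, so the groups did not overlap even as deposited. On the normalized log2 scale the arrays labelled Klf4-deficient stood at 11.46, 11.46 and 11.55, and the controls at 11.20, 11.15 and 11.17. The gap between the groups was wider than the spread within either. The log2 difference was 0.32 ± 0.03 (SE, n = 3 each), a 1.25-fold higher level, with an unadjusted p of 0.000341 and an adjusted p of 0.309 in limma over 19057 genes. It ranked at place 21 of all genes by p and did not pass. With no normalization between arrays the difference was 0.20 ± 0.07 (adjusted p = 0.779 in limma).

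Creld2, an ER-stress-inducible protein with EGF-like domains that assists folding in the ER, was measured by 2 probes. The brighter probe gave 858, 886 and 749 in the arrays labelled Klf4-deficient, against 805, 703 and 791 in the controls. As deposited these groups overlapped, because array 3 labelled Klf4-deficient lay under 2 of the controls. After normalization they did not, with 9.75, 9.77 and 9.80 in the arrays labelled Klf4-deficient and 9.58, 9.52 and 9.58 in the controls. The log2 difference was 0.21 ± 0.03 (SE, adjusted p = 0.309 in limma). The second probe gave 737, 714 and 550 in the arrays labelled Klf4-deficient, against 572, 576 and 646 in the controls, with a log2 difference of 0.25 ± 0.07 and again no overlap after normalization. Both probes thus gave a like size of difference. The call of no overlap for the brighter probe was lost with arrays centred on their median, where the difference was 0.14 ± 0.10, and with no normalization, where it was 0.11 ± 0.09.

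Dnajb9 encodes ERdj4, a J-domain partner of BiP that holds the sensor IRE1 in check and sends misfolded proteins to degradation. It had the largest difference of the 7 genes. Its signal was 126, 124 and 149 in the arrays labelled Klf4-deficient, against 115, 82.7 and 94.7 in the controls. Every array labelled Klf4-deficient lay above every control as deposited, with array 2 labelled Klf4-deficient closest to control array 1. The log2 difference was 0.48 ± 0.15 (SE, adjusted p = 0.576 in limma), a 1.39-fold higher level. Array 3 labelled Klf4-deficient was the highest, and without it the difference was 0.35 ± 0.12. The second Dnajb9 probe never passed the background limit.

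Calreticulin, the soluble lectin chaperone that holds newly made glycoproteins and buffers calcium, had overlapping groups. The brighter Calr probe gave 427, 460 and 461 in the arrays labelled Klf4-deficient, against 412, 374 and 484 in the controls, and the highest value belonged to control array 3. The log2 difference was 0.20 ± 0.12 (SE, adjusted p = 0.787 in limma). Without array 3 labelled Klf4-deficient it was 0.10 ± 0.10, and without control array 3 it was 0.28 ± 0.12. The second Calr probe lay near 0 on every array.

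The disulfide isomerases and Sdf2l1 lay on the other side of 0. Pdia4 (ERp72), a thioredoxin-domain isomerase found in complexes with BiP, gave 362, 324 and 247 in the arrays labelled Klf4-deficient, against 396, 325 and 388 in the controls. The groups overlapped, and the lowest value was that of array 3 labelled Klf4-deficient. The log2 difference of Pdia4 was -0.15 ± 0.10 (SE, adjusted p = 0.787 in limma), and -0.07 ± 0.08 without that array.

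Pdia6 (P5), an isomerase that also acts on the UPR sensors, gave 82.6, 75.1 and 60.2 in the arrays labelled Klf4-deficient, against 66.9, 83.3 and 89.7 in the controls. Its log2 difference was -0.05 ± 0.16, smaller than its error, and its second probe was above background on 1 of the 6 arrays. Sdf2l1, a partner of the ER J-domain protein Dnajb11, gave 251, 268 and 203 in the arrays labelled Klf4-deficient, against 274, 277 and 274 in the controls. As deposited all 3 arrays labelled Klf4-deficient were lower than any control. After normalization the groups overlapped, with a log2 difference of -0.09 ± 0.06 (adjusted p = 0.787 in limma).

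The 3 remaining genes could not be read. BiP is among the most abundant chaperones of the ER, but the only Hspa5 probe gave 21.9, 18.1 and 18.5 in the arrays labelled Klf4-deficient, against 24.8, 18.8 and 9.5 in the controls, and was above background on control array 1 alone. The single probes of Canx, the membrane-bound partner of calreticulin, and of Manf, a small ER protein that is released on stress, were under the limit on every array, between -6.7 and 5.6 and between -5 and 5.2. The position of their probes on the transcripts is not known here, and a probe at background gives no level for the gene.

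**Figure D3:**
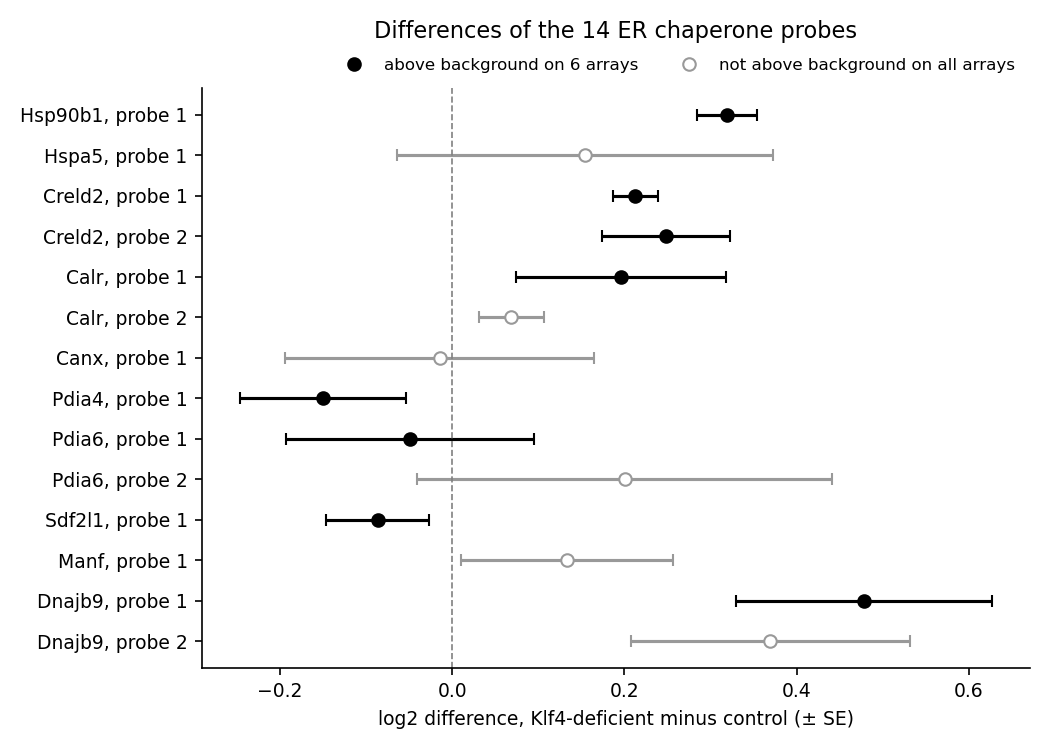
Log2 difference (arrays labelled Klf4-deficient minus control, with SE) of the 14 probes of the 10 genes in the fit over all probes, filled where a probe was above background on all 6 arrays. Among the filled probes, those of Hsp90b1, Creld2, Calr and Dnajb9 lay between 0.20 and 0.48 and those of Pdia4, Pdia6 and Sdf2l1 between -0.15 and -0.05.

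By the brightest probe of each gene, array 3 labelled Klf4-deficient held the extremes of all 7 readable genes within its group. On the normalized scale it was the highest of its 3 arrays for Hsp90b1, Creld2, Calr and Dnajb9 and the lowest for Pdia4, Pdia6 and Sdf2l1. Relative to the control mean, the median of the 10 genes was 0.08, 0.11 and 0.18 in arrays 1, 2 and 3 labelled Klf4-deficient. In the controls it was 0.03, -0.03 and -0.002. These medians include Hspa5, Canx and Manf, which could not be read. Without array 3 labelled Klf4-deficient the differences were 0.29 ± 0.02 for Hsp90b1 and 0.20 ± 0.03 for Creld2, and the number of genes higher without overlap was again 3.

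Markers of other bone marrow cells also varied among these arrays. Of 14 erythroid markers 10 were measured, 9 of them above background on at least 1 array. They summed to 6310 to 17735 in the arrays labelled Klf4-deficient, against 3684 to 6064 in the controls. Of these sums, Tfrc held 2499, 2830 and 2489 in the arrays labelled Klf4-deficient, against 1847, 1942 and 2043 in the controls. On the log2 scale the erythroid median lay 0.16, 1.06 and 1.77 above the control mean in arrays 1, 2 and 3 labelled Klf4-deficient. That order was the same as for the chaperone median. Control arrays lay at -0.31, 0.14 and 0.22, a range that held array 1 labelled Klf4-deficient. The 14 measured of 15 monocyte and macrophage markers lay at 0.28, 0.93 and 1.32, against -0.21, 0.18 and 0.09 in the controls. They summed to 4948 to 11961 against 4110 to 5452. Lyz2, chosen after its values were seen, made up most of these sums. It gave 3552, 3130 and 9308 in the arrays labelled Klf4-deficient, against 3748, 4143 and 2858 in the controls. Neutrophil markers, 12 of 13 measured, lay at 1.31 in array 3 labelled Klf4-deficient and at -0.19 and -0.06 in the other arrays of that group. Their control values were -0.02, 0.33 and -0.27, so only array 3 labelled Klf4-deficient lay outside the control range. The neutrophil sums were 76819 to 147654 against 75770 to 105329. NK and cytotoxic markers, 9 of 10 measured, lay at 0.30, 0.84 and 0.87, and between -0.01 and 0.06 in the controls. Their sums were 2640 to 3530.5 against 2111 to 3116. Double-positive thymocyte markers, 12 of 15 measured, summed to 69065 to 79131 against 82361 to 87167 as deposited. Once quantile normalized, these markers lay at -0.13, -0.07 and -0.07 in arrays 1, 2 and 3 labelled Klf4-deficient. The controls lay at 0.03, -0.03 and -0.03. The lowest sum was that of array 3 labelled Klf4-deficient, which had the lowest mean signal, but the lowest median was that of array 1. The part of these cells in the chaperone differences was not tested.

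Plasma cells, which are rich in ER chaperones, were looked at through 10 measured of 13 plasma and B cell markers. These summed to 1019 to 1394 in the arrays labelled Klf4-deficient, against 1167 to 1575 in the controls. Their log2 medians relative to the control mean were 0.21, -0.10 and 0.52 in arrays 1, 2 and 3 labelled Klf4-deficient and lay between -0.07 and 0.02 in the controls, so array 3 labelled Klf4-deficient was the highest. Of the list, Jchain, Prdm1, Tnfrsf17 and Pax5, named after their values were seen, were the 4 not above background on any array. Cd79b, Mzb1 and Irf4 were above it on all 6. Sdc1, also chosen after its values were seen, was above background on 2 of 3 arrays of each group. It gave 61, 1.7 and 51.6 in the arrays labelled Klf4-deficient, against 138, 13.8 and 32.8 in the controls. Mzb1, itself an ER co-chaperone of plasma cells, gave 70.1, 248 and 282 in the arrays labelled Klf4-deficient, against 121, 190 and 160 in the controls. The part of plasma cells in the chaperone differences was not tested.

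**Figure D4:**
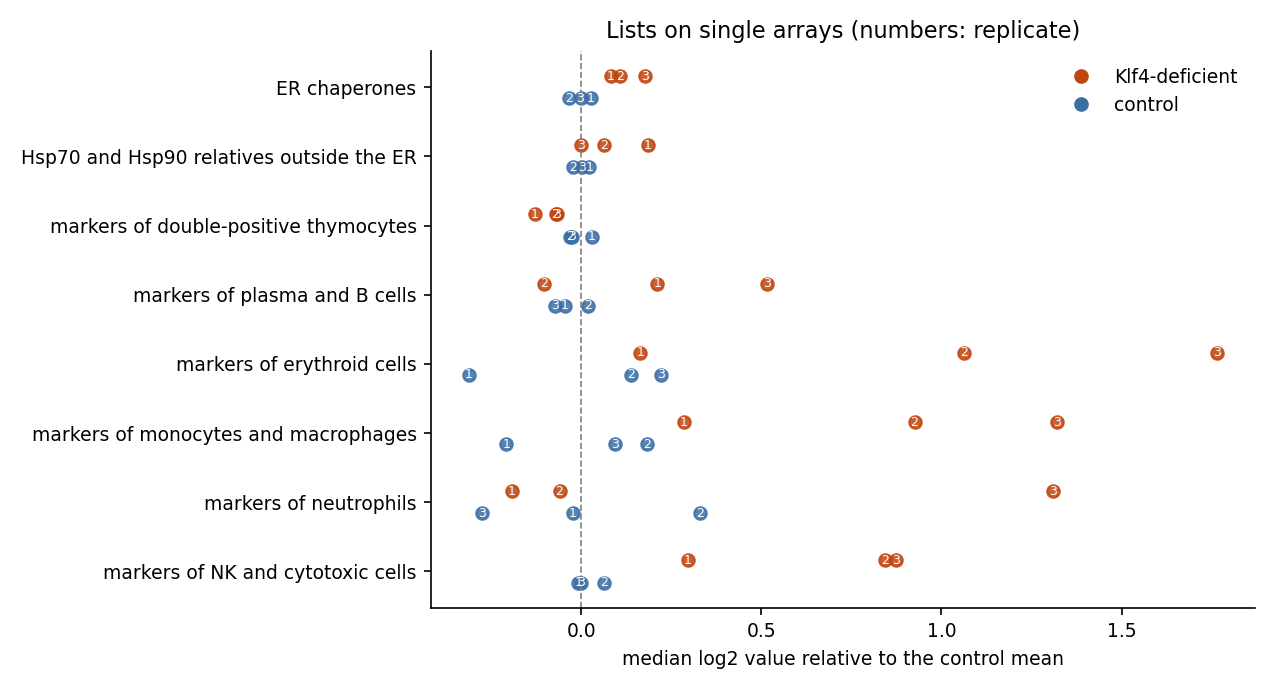
Median log2 value of each list on single arrays relative to the mean of the controls, numbered by replicate (orange, labelled Klf4-deficient; blue, control). The chaperone medians, which include the unread Hspa5, Canx and Manf, lie between 0.08 and 0.18 on the arrays labelled Klf4-deficient. The erythroid and monocyte medians are 0.16 and 0.28 in array 1 of that group and reach 1.77 and 1.32 in array 3.

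The other genes of ER protein folding did not lie to one side. Over 104 measured genes of 9 related lists the median log2 difference was 0.02, with 55 above 0, 46 below and 3 at 0. Of these, 8 were higher and 7 lower without overlap, where 5.45% and 6.11% of all genes were, and none of them (0 of 104) reached an adjusted p of 0.05 in limma. By unadjusted p, 7 genes were under 0.05 and higher and 5 under it and lower, where 3.49% and 4.1% of all genes were. None of the lists had a member past the adjusted threshold, and all values that follow are of genes that did not pass.

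Partners of BiP had a median of -0.05 over 8 measured genes. Dnajc10 (ERdj5), a J-domain protein that reduces disulfides before degradation, had the smallest p of this list. Its signal was 1361, 1512 and 1163 in the arrays labelled Klf4-deficient, against 1628, 1696 and 1734 in the controls, with no overlap and a log2 difference of -0.22 ± 0.06 (adjusted p = 0.528 in limma). Hyou1, the exchange factor that resets BiP, differed by -0.24 ± 0.12, with signals near the background limit. These were 31.6, 28.2 and 25.8 in the arrays labelled Klf4-deficient, against 44.4, 32.6 and 40 in the controls. Dnajc3, the inhibitor of PERK, differed by -0.13 ± 0.12. Dnajc1 differed by 0.16 ± 0.10.

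Disulfide isomerases and oxidases had a median of 0.03 over 17 measured genes. The archetype P4hb differed by 0.10 ± 0.07 and Erp29 by 0.09 ± 0.06, both with overlapping groups. After normalization Txndc5 was lower on every array labelled Klf4-deficient (-0.11 ± 0.03), though its groups overlapped as deposited. Txndc12 was higher on every one (0.38 ± 0.15).

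The calnexin cycle, which trims glucose and mannose from folding glycoproteins, had a median of -0.04 over 13 genes. Edem2, a mannosidase that marks misfolded glycoproteins for disposal, was lower on every array labelled Klf4-deficient (-0.13 ± 0.04). The glucosidase Mogs differed by 0.10 ± 0.04. The prolyl isomerase list had a median of -0.02 over 8 genes, and Fkbp11, an isomerase of secretory cells, gave 66.7, 106 and 135 in the arrays labelled Klf4-deficient, against 63.7, 62.9 and 73.7 in the controls.

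ER-associated degradation had a median of 0.04 over 16 genes. Syvn1 (Hrd1), its membrane ubiquitin ligase, differed by 0.13 ± 0.08 and was narrowly higher without overlap after normalization (lowest 11.274, highest control 11.269). Erlec1, a lectin of the same path, differed by -0.13 ± 0.07 and was narrowly lower without overlap (highest 10.218, lowest control 10.223). As deposited the groups overlapped for both. The translocon, signal peptidase and oligosaccharyltransferase had a median of 0.02 over 24 genes. Among them the oligosaccharyltransferase subunits Krtcap2 (0.17 ± 0.03) and Ddost (-0.15 ± 0.04) lay on opposite sides of 0 without overlap after normalization. As deposited the groups of Krtcap2 overlapped. Kdelr2, which returns escaped chaperones to the ER, was the only one of 3 KDEL receptor genes above background on all arrays and differed by 0.09 ± 0.04.

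UPR sensors and transcription factors had a median of 0.14 over 11 measured genes, 8 above 0 and 3 below. Ddit3, which encodes the stress factor CHOP, was higher without overlap after normalization (0.14 ± 0.03), and Atf4 differed by 0.31 ± 0.18. Mbtps1, the protease that releases ATF6 from the membrane, gave 1007, 1070 and 925 in the arrays labelled Klf4-deficient, against 1244, 1158 and 1279 in the controls, with a log2 difference of -0.17 ± 0.05 (adjusted p = 0.528 in limma). The Atf6 probe in use was under the limit on every array. Xbp1 (as Atf6, chosen after its values were seen) gave 3662, 4114 and 4077 in the arrays labelled Klf4-deficient, against 4117, 3490 and 3312 in the controls, and overlapped. Spliced and unspliced Xbp1 transcripts were not told apart.

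Among 13 measured Hsp70 and Hsp90 genes of the cytosol and mitochondria the median was 0.16, with differences from -0.55 to 1.07. The range of the ER chaperones was -0.15 to 0.48. The ends of the wider range were Hspa1b and Hspa1a. Hspa1b was above background on 1 control array alone, and Hspa1a on 2 arrays labelled Klf4-deficient and 1 control array. Over the 9 genes above background on all 6 arrays the differences ran from -0.32 (Hspa12b) to 0.58 (Hsph1). Hspa1a, Hspa1b and Hspa12b were chosen after their values were seen. Of the 13 genes, 3 were higher without overlap, where 5.45% of all genes and 7.65% of the brighter ones were. The lists were not tested against each other. Hspa8, the constitutive cytosolic Hsp70, differed by 0.22 ± 0.07, Hsp90aa1 by 0.29 ± 0.08 and Hspa4l by 0.39 ± 0.12. In the ER, Sdf2, the close relative of Sdf2l1, differed by 0.10 ± 0.03 and was higher without overlap after normalization but not as deposited. Creld1, the relative of Creld2, differed by -0.01 ± 0.15.

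**Figure D5:**
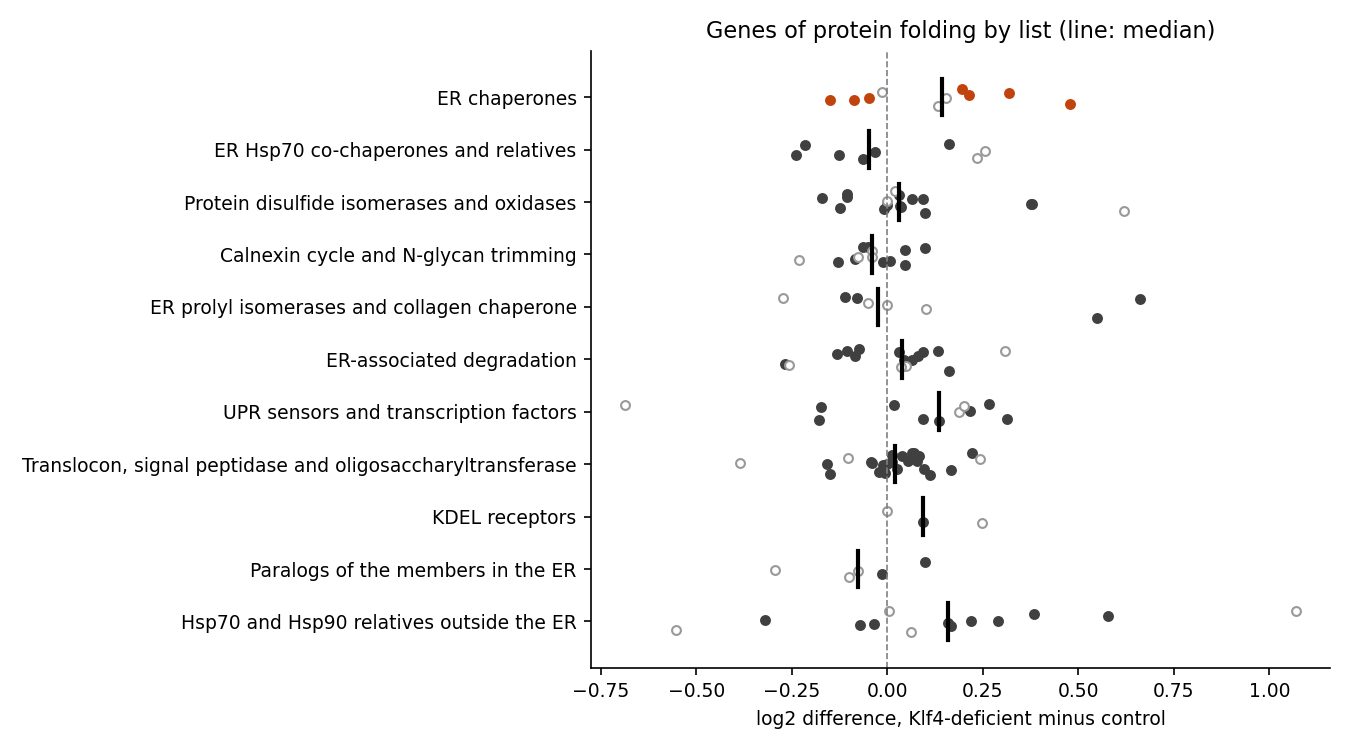
Log2 difference (arrays labelled Klf4-deficient minus control) of every measured gene of the chaperone list and 10 related lists, with the list's median as a line and open circles for genes not above background on all 6 arrays. The chaperone median lies at 0.14, the median of Hsp70 and Hsp90 relatives outside the ER at 0.16, and the other medians between -0.08 and 0.14.

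Chaperone genes with and without an exact ER stress element lay on both sides of 0, and a link between element and difference was not tested. Among the readable genes, Hsp90b1, Creld2 and Calr with an exact element differed by 0.32, 0.21 and 0.20 and Pdia6 with one by -0.05, while Dnajb9 without one differed by 0.48, and Pdia4 and Sdf2l1 without an exact one by -0.15 and -0.09. Among the genes on the array that had a promoter window, 22 held an exact element, and 11 of these were above background on all 6 arrays. Their median log2 difference was -0.01, with 5 above 0 and 6 below, and 3 were higher (Hsp90b1, Creld2 and Syvn1) and 1 lower (Pan2) without overlap. Pan2 and Alg12 were chosen after their values were seen. Of 6863 genes above background with a window but no exact element, 517 were higher and 689 lower without overlap, and their median was -0.01. Of the 11 genes with an exact element, the 7 that are not chaperone genes of the list had a median of -0.08. Alg12, whose window holds the same element as Creld2, gave 539, 680 and 649 in the arrays labelled Klf4-deficient, against 704, 664 and 760 in the controls, with a log2 difference of -0.08 ± 0.14 (SE, adjusted p = 0.925 in limma). The difference between Creld2 and Alg12 was not tested.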

How the data were processed

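The authors deposited background-subtracted probe intensity, not on a log scale. The submitters' processing notes name BeadStudio, without a version. How the background was taken, whether arrays were normalized and which build was used are not stated. Between 31.3% and 34.2% of the values of an array were below 0. Negative values were replaced by 0, an offset of 16 was applied before log2, and the arrays were then quantile normalized. Genes were fitted with limma 3.58.1 in R 4.3.3 (lmFit, eBayes with a variance trend) on the brightest probe of each of 19057 genes, and every probe in a second fit, with Benjamini-Hochberg adjustment over all and a threshold of 0.05. Probe names came from the platform annotation, where 34885 probes had 1 symbol, 18 several and 10378 none. Errors of log2 differences are SEs. The number of arrays limits the precision. Members and lists were chosen with earlier results of these data known. Named genes were the members, Klf4, and up to 4 genes per list by p among those above background on all 3 arrays of a group. Any other gene is marked as chosen later. Promoter sequences are RefSeq's (GRCm38.p6). The alternatives covered normalization, offset, a filter on dim genes, variance model, array weights, replicate block, probe choice, threshold and single arrays left out.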

Additional observations from a re-analysis of the deposited data

How the results depend on the processing

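None of the 10 chaperone genes passed an adjusted p of 0.05 in limma under any of 17 alternative fits, or an adjusted p under 0.10. By an unadjusted p under 0.05 the number was 3, but 1 with arrays centred on the median and 2 with no normalization, without control array 2 or without control array 3. The adjusted p of Hsp90b1 ran from 0.16 to 0.779, that of Creld2 from 0.18 to 0.779 and that of Dnajb9 from 0.407 to 0.894. The differences of Hsp90b1 (0.20 to 0.34), Creld2 (0.11 to 0.24), Dnajb9 (0.35 to 0.56), Calr, Pdia4 and Sdf2l1 kept their sign in all 17. Pdia6 turned to 0.0756 with the mean of its probes, and ran from -0.1703 to 0.0219 with 1 array left out, above 0 without array 3 labelled Klf4-deficient, control array 2 or control array 3. The probes of Canx and Hspa5 give no level for the gene, so the sign of their fitted values is not a direction. The value of Canx turned to 0.0282 with arrays centred on the median, 0.0027 with cyclic loess, 0.0029 with no normalization, and 0.0272 with an offset of 1, and ran from -0.1416 to 0.1379 with 1 array left out. That of Hspa5 ran from -0.0374 (without control array 3) to 0.2989 with 1 array left out. The median of the list was 0.0952 with no normalization, 0.21 with an offset of 1, 0.0589 with an offset of 50 and 0.20 with genes of a mean signal above 50, and ran from 0.0741 to 0.1518 with 1 array left out, the lowest without control array 3. The count higher without overlap was 2 with arrays centred on the median or not normalized, and 4 without control array 3. The count lower without overlap was 1 with no normalization (Sdf2l1) and ran from 0 to 2 with 1 array left out, the highest without control array 1. Over all genes 2 were called, Commd10 and Tspyl5, the latter at background on every array. The number was 1 with centring, cyclic loess, an offset of 50, the dim-gene filter, no variance trend and robust moderation, 5 with no normalization and with an offset of 1, and from 3 to 23 with 1 array left out, 23 without array 1 labelled Klf4-deficient. It was 0 with the mean of probes (1342 at an unadjusted p under 0.05 in limma). With the replicate number as a block 0 genes passed (1314 at an unadjusted p under 0.05), and Hsp90b1 had an adjusted p of 0.692 in limma. The deviations of same-numbered arrays had correlations of 0.194, -0.02 and -0.21, and those of arrays with different numbers ran from -0.322 to 0.269. With 3 arrays per group these values cannot decide whether the numbers pair the samples.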
